A study of Mus musculus with 32 samples.

Results

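The comparison described here sets 2 sorted gates of the mouse thymus at E19.5 (embryonic day, late gestation) against each other across all measured genes: DN1 cells low for both BCL11b and ID2 (BCL11blowID2low) and DN1 cells that lack BCL11b and carry ID2 (BCL11b-ID2+). Each gate had 3 libraries, numbered 1, 2 and 4 in the labels, which makes 6 of the 32 libraries of the series and 6 of the 18 of this stage. All were bulk RNA-seq libraries from flow-sorted cells of 5x polychromILC mice, a reporter strain, and no knockout, drug or other treatment is named for either gate. The other 4 populations of the stage (DN2, BCL11b-ID2-, BCL11b+ID2+ and BCL11b+ID2-) served to estimate the spread and, further on, as a reference for single genes. Neither the surface markers behind the DN1 label, nor the sex or litter of the animals, nor whether the 3 libraries of a gate came from separate animals is given in the labels, so the p-values measure the spread between these libraries, part of which may be technical.

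DN1 and DN2 are names for early thymocytes without CD4 and CD8. BCL11b is a zinc finger transcription factor that thymocytes turn on at commitment to the T lineage and that holds back natural killer (NK) genes. ID2 blocks E-protein transcription factors and marks innate lymphoid cells, a family that includes NK cells. The fetal thymus also makes the first waves of gamma-delta T cells, many of which are programmed there to make interleukin 17 with the help of the factors SOX13, MAF and PLZF (Zbtb16). NK cells instead depend on T-bet (Tbx21) and EOMES and carry activating and inhibitory receptors, perforin, granzymes and interferon gamma.

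Values are normalised reads, the reads of each library divided by a DESeq2 size factor. Because these values are not divided by gene length, levels are compared between libraries and not between genes. Differences are BCL11blowID2low minus BCL11b-ID2+ on the scale of log2 of the value plus 1, with the standard error (SE) and the adjusted p of 1 limma fit over all 18 libraries of the stage, and folds are ratios of mean values. A gene was called at an adjusted p under 0.05 and is said to have differed only then. The BCL11blowID2low libraries held 2599470 to 7060056 reads and detected 14387 to 16709 genes, and the BCL11b-ID2+ libraries 5682450 to 9498133 reads and 16111 to 18879 genes. Mitochondrial ribosomal RNA took 28.7% to 45.4% of the reads in BCL11blowID2low and 34.3% to 44.4% in BCL11b-ID2+. On the first principal component of the stage, which held 23.2% of the variance, the gates overlapped. The 3 BCL11blowID2low libraries lay from 34.3 to 61.5 there and the 3 BCL11b-ID2+ libraries from 60.4 to 73.1. On the second, which held 14.6% of the variance, the BCL11blowID2low libraries lay from -47.4 to -23.9 and the BCL11b-ID2+ libraries from 75.9 to 94.2. In bulk RNA a smaller share of cells of a type and less RNA per cell cannot be told apart, and this holds for every difference below.

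The levels of the 2 reporter genes that the cells were sorted on followed the labels. Bcl11b stood at 476, 491 and 376 normalised reads in BCL11blowID2low replicates 1, 2 and 4 and at 22.2, 39.2 and 18.9 in BCL11b-ID2+, a 16.7-fold difference (log2 4.08, SE 0.50, adjusted p = 7.09e-06). Id2 stood at 183, 165 and 159 in BCL11blowID2low and at 1540, 1278 and 1494 in BCL11b-ID2+, 8.51-fold lower (log2 -3.08, SE 0.74, adjusted p = 0.00828). Neither gene overlapped between the gates, and part of both differences can follow from the sort itself. Between the other gates the low label stood for an intermediate level: the mean Bcl11b was 1674 ± 348 (SD, n = 3) in BCL11b+ID2- and 16.3 ± 13 in BCL11b-ID2-, while Id2 had a mean of 1119 ± 138 in BCL11b+ID2+ and of 19.6 ± 15.9 in BCL11b+ID2-. For Bcl11b, however, BCL11blowID2low at 448 ± 62.5 did not differ detectably from the BCL11b+ID2+ gate at 515 ± 95.7 (log2 -0.19, adjusted p = 0.907).

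Across the 13840 genes tested, 1186 were called, or 8.57%. Of these, 446 were higher in BCL11blowID2low (3.22% of the genes tested) and 740 were lower (5.35%). The differences were large: 258 of the genes called higher and 531 of those called lower differed by at least 2 on the log2 scale, and 42 and 127 by at least 5. The median log2 difference was 2.56 among the genes called higher and -3.35 among those called lower, beside -0.11 over all genes tested. For 18 called genes the libraries of the gates overlapped. Without BCL11b-ID2+ replicate 2 the counts fell to 768 called genes, 275 higher and 493 lower. A gene below the threshold is not shown to be equal in the gates.

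**Figure D1:**
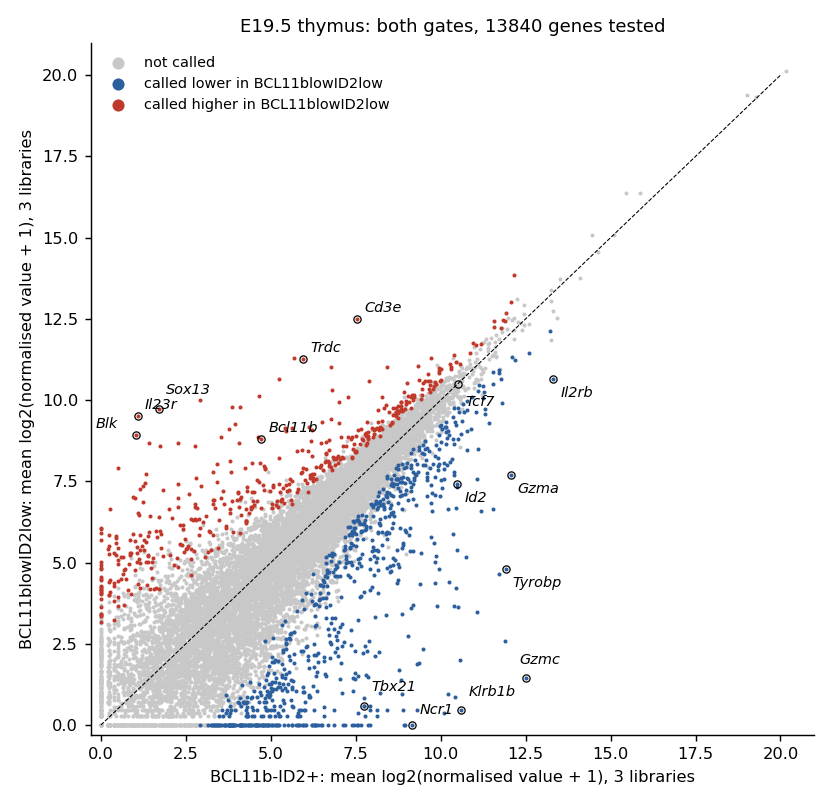
Mean level of each tested gene in BCL11b-ID2+ (x axis) and in BCL11blowID2low (y axis), both as the mean over 3 libraries of log2 of the normalised reads plus 1, with genes called higher or lower in colour, some of them named, and a dashed line at equal levels. Genes along the left edge with high y values (Il23r, Sox13, Blk) were near 0 in BCL11b-ID2+, and genes along the lower edge with high x values (Gzmc, Klrb1b, Ncr1) were near 0 in BCL11blowID2low.

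Most genes of the gamma-delta list were called higher in BCL11blowID2low, among them some of the receptor constant and variable segments and some regulators of the lineage. Of 26 genes on the gamma-delta list, 23 were tested, 14 were called higher and 0 lower, with a median log2 difference of 3.73 beside -0.11 over all genes. Leaving out each library in turn gave 13 to 14 called higher. Trdc, the constant segment of the T-cell receptor delta chain (chromosome 14, 54142851 to 54148868, GRCm38), stood at 1959, 2971 and 2600 normalised reads in BCL11blowID2low and at 92.2, 43.0 and 57.9 in BCL11b-ID2+. Every BCL11blowID2low library was thus far above every BCL11b-ID2+ library, and the means differed 39.0-fold (log2 5.31, SE 0.27, adjusted p = 6.12e-12). Tcrg-C1, a constant segment of the gamma chain, stood at 2008, 2164 and 2087 against 103, 125 and 99.2 (log2 4.25, SE 0.22, adjusted p = 6.12e-12). Tcrg-C2, another gamma constant segment, stood at 845, 1435 and 1115 against 34.1, 12.3 and 33.7 (log2 5.45, SE 0.34, adjusted p = 2.43e-10). Tcrg-C4, a further gamma constant segment on the list, had many reads in both gates, at 1039, 1053 and 798 against 556, 627 and 706, and was not called (log2 0.61, 95% interval -0.51 to 1.73, adjusted p = 0.599).

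Some variable segments were called and others were not. Tcrg-V6 and Trdv4 are, as background, the gamma and delta variable segments that one fetal wave of interleukin 17-making gamma-delta T cells uses together. Tcrg-V6 stood at 315, 423 and 425 normalised reads in BCL11blowID2low and at 0.599, 3.07 and 4.72 in BCL11b-ID2+ (139-fold, log2 6.85, SE 0.80, adjusted p = 3.87e-06). Trdv4 stood at 442, 684 and 608 against 41.3, 33.0 and 54.3 (13.5-fold, log2 3.73, SE 0.63, adjusted p = 0.00028). Trgv2, a further gamma variable segment that ranked among the largest differences, stood at 429.9, 449.5 and 350.3 against 7.78, 2.3 and 2.95 (log2 6.39, SE 0.76, adjusted p = 4.37e-06). Tcrg-V4 stood at 71.4, 31.3 and 67.8 against 11.4, 16.9 and 8.86, without overlap of the gates, and its call depended on the setting: limma did not call it (log2 2.07, 95% interval 0.50 to 3.64, adjusted p = 0.103), while it was called higher in edgeR (adjusted p = 0.0326), in DESeq2 (0.00139), with a pseudocount of 8 (0.0236) and after quantile normalisation (0.0461). Tcrg-V1, at 224, 85.0 and 79.9 against 20.4, 29.2 and 41.3, was likewise not called in limma (log2 1.95, 95% interval 0.45 to 3.45, adjusted p = 0.109) but was in DESeq2 (0.01) and with a pseudocount of 8 (0.019). Tcrg-V5 was not called and stood at 21.6, 17.9 and 17.8 against 26.3, 39.2 and 9.45 (log2 -0.17, 95% interval -1.71 to 1.36, adjusted p = 0.939). Receptor segments are alike in sequence, reads can fall on a neighbouring copy, and the sources used here do not give the way reads were counted, so the split among segments is uncertain.

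Several regulators of the lineage were called higher as well. Sox13, a SOX factor required for interleukin 17-making gamma-delta cells (chromosome 1, 133382303 to 133424377), stood at 993, 849 and 729.6 normalised reads in BCL11blowID2low and at 2.39, 1.54 and 2.95 in BCL11b-ID2+, 374-fold apart (log2 8.04, SE 0.69, adjusted p = 3.69e-08). Blk, a Src-family kinase known from B cells and from these gamma-delta cells, stood at 428, 541 and 498 against 1.2, 0.768 and 1.2 (466-fold, log2 7.90, SE 0.60, adjusted p = 4.1e-09). Zbtb16 stood at 581, 967 and 471 against 86.2, 96.0 and 90.3 (7.41-fold, log2 2.81, SE 0.54, adjusted p = 0.00125). Maf stood at 1844, 1724 and 1161 against 283, 221 and 207 (6.66-fold, log2 2.71, SE 0.32, adjusted p = 4.07e-06). In every BCL11b-ID2+ library Sox13 and Blk were near 0, at 2.95 normalised reads or fewer, while Maf and Zbtb16 kept reads, at 86.2 or more. Other factors known from gamma-delta cells were not called in limma. Etv5 stood at 88.0, 79.4 and 39.5 against 7.78, 18.4 and 5.9 (log2 2.65, 95% interval 0.64 to 4.65, adjusted p = 0.101), with a call when only the 6 libraries were fitted (0.0484) or the replicate number was a block (0.0215). Id3 stood at 56.4, 83.9 and 138 against 15, 26.1 and 17.7 (log2 2.13, 95% interval 0.36 to 3.90, adjusted p = 0.143), with a call in DESeq2 (0.0217) and with a pseudocount of 8 (0.0254). For Etv5 and Id3 the libraries of the gates did not overlap. Sox4 stood at 31.5, 13.4 and 11.3 against 2.39, 15.4 and 7.09 (log2 1.23, adjusted p = 0.25).

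Among 21 T-lineage transcription factors, all tested, 8 were called higher and 0 lower, and the median log2 difference was 0.71. The 8 include Bcl11b, a reporter gene of the sort, whose difference can follow in part from the sort itself. Runx3, which narrowly missed the threshold (log2 -1.11, adjusted p = 0.0573), was called lower under 6 alternatives: without BCL11blowID2low replicate 1 (0.0117), with the replicate block (0.0122), with library weights (0.0327), with a filter of 50 (0.0405), with TMM scaling (0.0469) and with a pseudocount of 8 (0.0488). Besides those above, the 8 include Lef1, a partner of TCF1, at 863, 463 and 437 normalised reads in BCL11blowID2low against 66.5, 33.0 and 50.8 (log2 3.51, SE 0.56, adjusted p = 0.000151), and Tox2 at 118, 121 and 127 against 4.79, 5.37 and 25.4 (log2 3.63, SE 0.84, adjusted p = 0.00634). Several early factors stood at like levels in the gates. Tcf7, which encodes TCF1, an initiator of both T-cell and innate lymphoid development, stood at 1584, 1820 and 1023 against 1738, 1443 and 1220 (log2 -0.02, 95% interval -0.47 to 0.43, adjusted p = 0.983). Ets1 stood at 2498, 2310 and 1904 against 2000, 2442 and 2092 (log2 0.04, 95% interval -0.45 to 0.52, adjusted p = 0.963). Gata3 stood at 390.1, 347 and 349 against 433, 484 and 402 (log2 -0.28, 95% interval -0.77 to 0.21, adjusted p = 0.579). For these 3 genes the intervals leave no room for a difference of 2-fold in either direction.

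Interleukin 17 pathway genes were higher in BCL11blowID2low as well, and several were near 0 in the other gate. Of 14 genes on the type 3 innate lymphoid and type 17 list, 12 were tested, 8 were called higher and 1 lower (Ahr), with a median log2 difference of 3.43. Of the 8, all but Tnfsf11 and Cxcr5 stand on the gamma-delta list too. The count of genes called higher was 5 without BCL11b-ID2+ replicate 2 and 5 without BCL11blowID2low replicate 2. Il23r, the receptor chain for interleukin 23 (chromosome 6, 67422932 to 67491855), stood at 986, 590.4 and 656 normalised reads in BCL11blowID2low and at 0.599, 0.768 and 2.36 in BCL11b-ID2+. This was the largest log2 difference among the named genes higher in BCL11blowID2low (599-fold, log2 8.42, SE 0.88, adjusted p = 8.19e-07). Il1r1, the receptor for interleukin 1, stood at 1119, 872 and 686 against 32.3, 13.1 and 9.45 (log2 5.69, SE 0.72, adjusted p = 9.57e-06).

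The cytokine genes themselves were low but one-sided. Il17a stood at 28.2, 57.0 and 79.9 normalised reads in BCL11blowID2low and at 0 in all 3 BCL11b-ID2+ libraries, at least 85.6-fold higher when the empty gate is set to a floor of 3 reads (log2 5.69, SE 0.93, adjusted p = 0.0002). Il17f stood at 1.66, 20.1 and 18.6 against 0 in all 3 (log2 3.37, SE 0.96, adjusted p = 0.0277). The call of Il17f was lost without any one of the BCL11b-ID2+ libraries and without BCL11blowID2low replicate 2 or 4, with adjusted p from 0.0736 to 0.132, and with a pseudocount of 8 (0.0914) or only the 6 libraries fitted (0.0982). Il22 did not reach the level required for testing, with 20 reads over the BCL11blowID2low libraries and 0 over the others. Ahr, a ligand-activated factor of type 3 innate lymphoid and NK cells, went the other way, at 194, 122 and 172 against 1472, 1592 and 1227 (8.79-fold lower, log2 -3.15, SE 0.39, adjusted p = 7.67e-06).

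**Figure D2:**
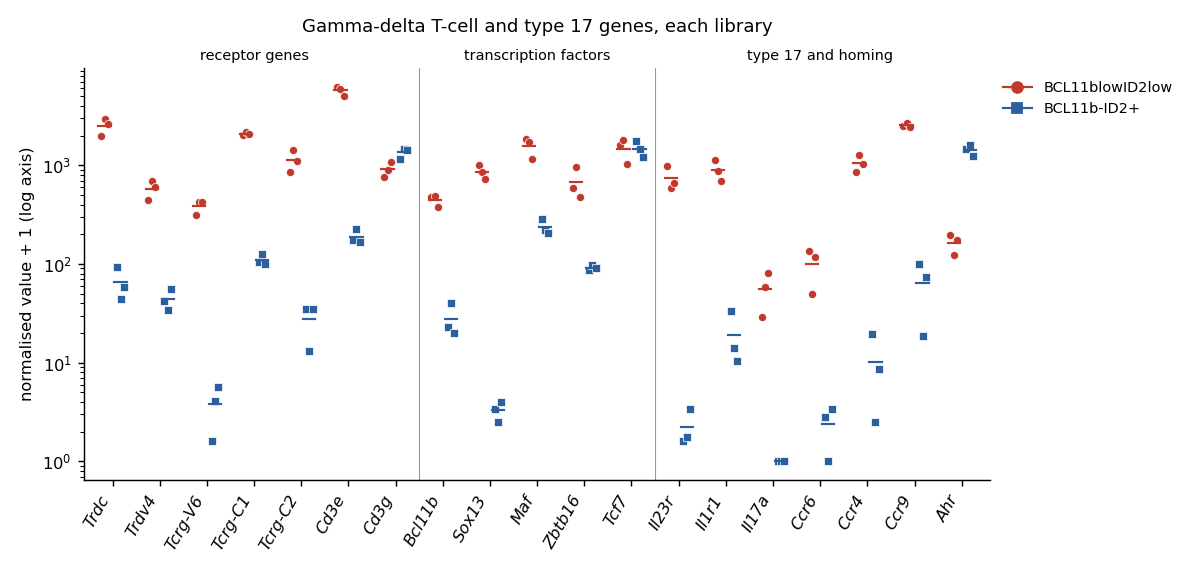
Normalised reads per library (log10 axis of the value plus 1) of receptor genes, transcription factors, and type 17 and homing genes, with points for the 3 libraries of each gate and a bar at the mean. Cd3g, Tcf7 and Ahr are the exceptions among genes that otherwise lie higher in BCL11blowID2low in every library, by 599-fold in the mean for Il23r and 6.66-fold for Maf.

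The start-site regions of Il17a, Il17f and Il23r are shown next as examples of type 17 genes at 2.36 normalised reads or fewer in every BCL11b-ID2+ library (Ccr6, described further on, is another), because AGGTCA is a DNA half-site that nuclear receptors bind. Each is the 300 bases from RefSeq (GRCm38.p6) around the gene's start, read 5′ to 3′ on the gene's strand, with capitals marking AGGTCA or its reverse complement TGACCT. The Il17a region is chr1:20730655-20730954 on the plus strand, with 1 match, the Il17f region is chr1:20784221-20784520 on the minus strand, with 1 match, and the Il23r region is chr6:67491806-67492105 on the minus strand, with 2 matches.
Il17a: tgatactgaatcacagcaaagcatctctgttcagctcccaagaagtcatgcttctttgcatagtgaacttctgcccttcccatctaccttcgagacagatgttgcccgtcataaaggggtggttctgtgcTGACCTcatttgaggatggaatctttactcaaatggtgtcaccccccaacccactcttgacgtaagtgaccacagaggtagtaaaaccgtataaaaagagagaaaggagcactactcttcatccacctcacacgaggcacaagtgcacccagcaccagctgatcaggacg
Il17f: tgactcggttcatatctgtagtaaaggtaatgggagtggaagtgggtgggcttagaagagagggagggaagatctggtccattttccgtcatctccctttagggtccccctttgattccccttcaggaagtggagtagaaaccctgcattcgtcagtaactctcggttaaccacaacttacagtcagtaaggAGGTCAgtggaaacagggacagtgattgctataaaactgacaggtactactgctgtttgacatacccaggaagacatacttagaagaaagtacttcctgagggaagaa
Il23r: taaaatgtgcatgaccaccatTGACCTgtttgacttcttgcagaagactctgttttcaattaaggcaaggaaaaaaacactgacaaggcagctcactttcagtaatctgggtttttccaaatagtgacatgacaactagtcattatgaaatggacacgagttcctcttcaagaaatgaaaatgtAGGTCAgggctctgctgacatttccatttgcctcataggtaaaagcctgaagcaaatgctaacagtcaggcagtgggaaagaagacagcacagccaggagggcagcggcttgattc
AGGTCA was searched on both strands, and 16.3% of the 32851 RefSeq start-site regions of this length hold it. By gene, the measure used for the lists here, 18.1% of 27025 genes hold it in any of their regions. Of the 8 type 17 genes called higher, 6 have an entry and 4 hold it (Il23r, Il17a, Il17f and Ccr6); of the 18 NK receptor genes called lower, 15 have an entry and 4 hold it (Ncr1, Klrb1a, Klrb1b and Klrb1c). A match describes the letters in the window and nothing about binding in these cells.

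Receptors for homing divided between the gates. Of 25 chemokine receptor and homing genes, 24 were tested, 7 were called higher in BCL11blowID2low and 9 lower, with a median log2 difference of -0.32; without BCL11b-ID2+ replicate 2 the count called higher was 4. Ccr4 stood at 855, 1255 and 1037 normalised reads in BCL11blowID2low against 18.6, 1.54 and 7.68 (113-fold, log2 7.10, SE 0.90, adjusted p = 9.4e-06). Ccr9, the receptor for the thymic and gut chemokine CCL25, stood at 2511, 2655 and 2435 against 98.2, 17.7 and 72.0 (40.5-fold, log2 5.63, SE 0.40, adjusted p = 1.12e-09). Ccr6, a receptor typical of type 17 cells, stood at 133, 49.2 and 118 against 1.8, 0 and 2.36 (log2 5.46, SE 0.80, adjusted p = 5.56e-05). The genes higher in BCL11b-ID2+ include Ccr8, Cxcr3, Cx3cr1, Itga1, Itga2, Itgae, Itga4 and Cd44. Itga1, the integrin CD49a of tissue-resident NK cells and type 1 innate lymphoid cells, stood at 0, 2.24 and 0.807 in BCL11blowID2low against 1242, 1536 and 1379 (log2 -9.58, SE 0.82, adjusted p = 3.56e-08), while Itga2, the integrin CD49b of circulating NK cells, stood at 29.9, 41.4 and 50.0 against 312, 267 and 278 (log2 -2.82, SE 0.54, adjusted p = 0.00116). Cxcr3 stood at 11.6, 61.5 and 12.9 against 380.2, 509 and 409.8 (log2 -4.28, SE 0.80, adjusted p = 0.000867). Cx3cr1 stood at 73.0, 1.12 and 55.7 against 843, 925 and 988 (log2 -5.47, SE 1.06, adjusted p = 0.00125), with BCL11blowID2low replicate 2 well below the other two.

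Parts of the T-cell receptor complex were present in both gates. Of 23 genes of the complex and its proximal signalling, all tested, 8 were called higher, 4 lower and 11 neither, with a median log2 difference of 0.72. The 8 became 6 without BCL11b-ID2+ replicate 2 or 4 or BCL11blowID2low replicate 1 or 2. Cd3e, a signalling chain of the complex, stood at 6241, 5984 and 5007 normalised reads in BCL11blowID2low and at 172, 224 and 164 in BCL11b-ID2+ (30.8-fold, log2 4.94, SE 0.29, adjusted p = 6.71e-11). Cd247, the zeta chain, which NK receptors also use, stood at 1067, 1182 and 1013 against 120.3, 168 and 178 (log2 2.81, SE 0.38, adjusted p = 2.15e-05). Cd3d stood at 413, 614 and 953 against 113, 113 and 168 (log2 2.27, SE 0.49, adjusted p = 0.00355). The neighbouring Cd3g did not follow them: it stood at 754, 899 and 1066 in BCL11blowID2low and at 1162, 1450 and 1433 in BCL11b-ID2+ (log2 -0.58, 95% interval -1.32 to 0.16, adjusted p = 0.394). Cd6 stood at 149, 115 and 123 against 0, 2.3 and 1.2 (log2 6.07, SE 0.82, adjusted p = 2.15e-05). In the opposite direction, Trat1, an adaptor of the receptor, stood at 51.5, 36.9 and 29.1 against 614, 815 and 632 (17.6-fold lower, log2 -4.13, SE 0.49, adjusted p = 4.32e-06). The other genes called lower were Lck, Cd2 and Ubash3a, and the count of 4 was 2 without BCL11b-ID2+ replicate 1 or 4 or BCL11blowID2low replicate 2 and when only the 6 libraries were fitted.

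Of 13 alpha-beta thymocyte genes, all tested, 7 were called higher and 0 lower (median log2 difference 1.93), a count that was 3 without BCL11b-ID2+ replicate 2 or BCL11blowID2low replicate 2 and 4 without BCL11blowID2low replicate 1, without the filter on low values, with library weights and when only the 6 libraries were fitted. Trbc1, a constant segment of the T-cell receptor beta chain, stood at 684, 986 and 940.3 normalised reads against 268, 334 and 380.3 (2.66-fold, log2 1.4, SE 0.19, adjusted p = 2.79e-05). Trbc2 stood at 1192, 1702 and 1781 against 816, 747 and 804 (1.98-fold, log2 0.96, SE 0.16, adjusted p = 0.00026). Beta constant reads were thus present in every library of both gates. Trac, the alpha constant segment, stood at 99.6, 154 and 85.6 against 22.8, 0.768 and 21.3 (log2 3.5, SE 0.97, adjusted p = 0.0238), and lost its call without BCL11b-ID2+ replicate 2 or BCL11blowID2low replicate 1 or 2 (adjusted p 0.0504 to 0.192), with library weights (0.0621) and when only the 6 libraries were fitted (0.0548). Rag2, which cuts receptor genes together with Rag1, stood at 34.9, 45.8 and 23.4 against 16.2, 0 and 13.6 and was called higher (log2 2.45, SE 0.75, adjusted p = 0.0428), a call lost without BCL11b-ID2+ replicate 2 (0.285) or any BCL11blowID2low library (0.0517 to 0.137) and under 5 other settings, edgeR among them (0.0623 to 0.267). Cd8a, a chain of the CD8 coreceptor, stood at 174, 126 and 170.3 against 49.7, 25.3 and 50.8 and was called higher (log2 1.93, SE 0.56, adjusted p = 0.03), though not when any one of the 6 libraries was left out (0.0509 to 0.148) or without the filter (0.0532). Arpp21, known from thymocytes, stood at 68.1, 135 and 42.0 against 24.5, 4.61 and 49.6, with overlap of the gates (log2 1.93, SE 0.58, adjusted p = 0.0385), and lost its call without BCL11b-ID2+ replicate 1 or 2 or BCL11blowID2low replicate 1 or 2 (0.0569 to 0.285) and under 4 other settings, edgeR among them (0.061 to 0.239). Ptcra and Rag1 were not called: Ptcra, the pre-T-cell receptor chain, stood at 0, 0 and 16.1 against 0, 0 and 0.59 (adjusted p = 0.667), and Rag1 at 317, 248 and 159 against 265, 147 and 89.8 (log2 0.61, 95% interval -0.19 to 1.41, adjusted p = 0.411).

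The genes higher in BCL11b-ID2+ were led by the NK programme, and several receptors that define NK cells were at or near 0 in BCL11blowID2low. Of 29 NK receptor genes, 20 were tested, 0 were called higher and 18 lower, with a median log2 difference of -5.55; leaving out each library in turn gave 15 to 17. Ncr1, which encodes NKp46 (chromosome 7, 4337724 to 4345164), stood at 0 in all 3 BCL11blowID2low libraries and at 450.2, 597 and 698 normalised reads in BCL11b-ID2+, at least 531-fold lower at a floor of 3 reads (log2 -9.16, SE 0.80, adjusted p = 4.88e-08). Klrb1c, the NK1.1 antigen (chromosome 6, 128778485 to 128789215), stood at 0, 1.12 and 0 against 1148, 1062 and 1080 (log2 -9.74, SE 0.97, adjusted p = 3.88e-07). Its mean ratio was 2942, with a 95% counting interval from 528 to 116219, since a lone read stands on the lower side. Klrb1b, an inhibitory receptor encoded next to it, stood at 0, 0 and 1.61 against 1866, 1479 and 1373 (log2 -10.14, SE 0.81, adjusted p = 1.14e-08).

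Other receptors of the list gave the same picture, with some reads left in BCL11blowID2low. Klrk1, which encodes NKG2D, stood at 33.2, 4.47 and 8.88 normalised reads in BCL11blowID2low and at 1272, 1423 and 1712 in BCL11b-ID2+ (94.7-fold lower, log2 -6.89, SE 0.75, adjusted p = 1.55e-06). Klrd1, which encodes CD94, stood at 18.3, 25.7 and 3.23 against 486, 465 and 854 (log2 -5.48, SE 0.88, adjusted p = 0.000164). Cd244a, the receptor 2B4, stood at 3.32, 0 and 11.3 against 572, 612 and 791 (log2 -7.44, SE 0.84, adjusted p = 2.41e-06). Klrb1f was the least separated of those named, at 105, 214 and 101 against 757, 1068 and 1238 (7.31-fold lower, log2 -2.92, SE 0.69, adjusted p = 0.00801). The adaptors that carry the signal of many of these receptors followed: Tyrobp, which encodes DAP12, stood at 11.6, 34.7 and 46.0 against 2958, 4051 and 4771 (128-fold lower, log2 -7.12, SE 0.48, adjusted p = 4.68e-10), and Fcer1g at 26.6, 10.1 and 50.0 against 3010, 3478 and 3620 (117-fold lower, log2 -7.07, SE 0.49, adjusted p = 7.37e-10). Genes of the Klr family are alike in sequence, so the split of reads among close copies is uncertain.

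All 18 of the 20 cytotoxic granule and effector genes that could be tested were called lower in BCL11blowID2low, with a median log2 difference of -4.97, and 16 to 18 were when each library was left out. Gzmc, a granzyme (chromosome 14, 56231441 to 56234656), stood at 1.66, 0 and 6.46 normalised reads in BCL11blowID2low and at 5644, 5034 and 7045 in BCL11b-ID2+, the largest log2 difference of all named genes (2184-fold lower, log2 -11.08, SE 0.74, adjusted p = 4.68e-10). Gzma and Gzmb were less far apart because BCL11blowID2low kept reads of both: Gzma stood at 186, 191 and 245 against 3913, 3308 and 5961 (21.2-fold lower, log2 -4.37, SE 0.31, adjusted p = 1.49e-09), and Gzmb at 161, 204 and 29.9 against 1015, 1093 and 1483 (9.11-fold lower, log2 -3.55, SE 0.68, adjusted p = 0.00121). Ifng, interferon gamma, stood at 0 in all 3 BCL11blowID2low libraries against 120.3, 199 and 188 (at least 154-fold lower, log2 -7.38, SE 0.88, adjusted p = 4.43e-06). The chemokine gene Ccl5 stood at 4.98, 1.12 and 4.04 against 1428, 1357 and 1802 (453-fold lower, log2 -8.57, SE 0.78, adjusted p = 8.24e-08).

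Perforin was the exception within this group. Prf1 stood at 76.4, 0 and 0 normalised reads in BCL11blowID2low and at 80.8, 121 and 83.3 in BCL11b-ID2+, so the first BCL11blowID2low library came close to the range of the other gate (log2 -4.47, SE 1.19, adjusted p = 0.0179). Its call was lost in edgeR (adjusted p = 0.411), in DESeq2 (adjusted p = 0.405), when only the 6 libraries were fitted (0.106) and when any library other than BCL11blowID2low replicate 1 was left out (adjusted p 0.0505 to 0.115). Tnfsf10, the death ligand TRAIL of fetal and tissue-resident NK cells, was clear of such overlap, at 131, 303 and 174 against 1876, 2138 and 2404 (10.6-fold lower, log2 -3.48, SE 0.39, adjusted p = 2.19e-06).

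The 2 factors that direct NK cells were near 0 in BCL11blowID2low. Tbx21 stood at 0, 0 and 2.42 normalised reads in BCL11blowID2low and at 129, 257 and 287 in BCL11b-ID2+ (log2 -7.14, SE 0.94, adjusted p = 1.54e-05). Eomes stood at 0, 2.24 and 0 against 48.5, 37.6 and 67.3 (log2 -5.10, SE 0.91, adjusted p = 0.000499). Of the 11 NK and type 1 innate lymphoid factors, all tested, these and Id2 were the 3 called lower, and 0 were called higher (median log2 difference -0.45). Id2 is a reporter gene of the sort. Nfil3, which is needed early in NK development, stood at 64.7, 7.83 and 47.6 against 159.9, 94.4 and 92.1 and was not called (log2 -1.89, 95% interval -3.83 to 0.06, adjusted p = 0.267). Zfp683, which encodes Hobit, was not called either, at 19.9, 111 and 37.1 against 246, 335 and 522 (log2 -2.98, 95% interval -5.34 to -0.61, adjusted p = 0.122), but it was called lower when only the 6 libraries were fitted (0.0106) and with a pseudocount of 8 (0.00413), and its libraries did not overlap.

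**Figure D3:**
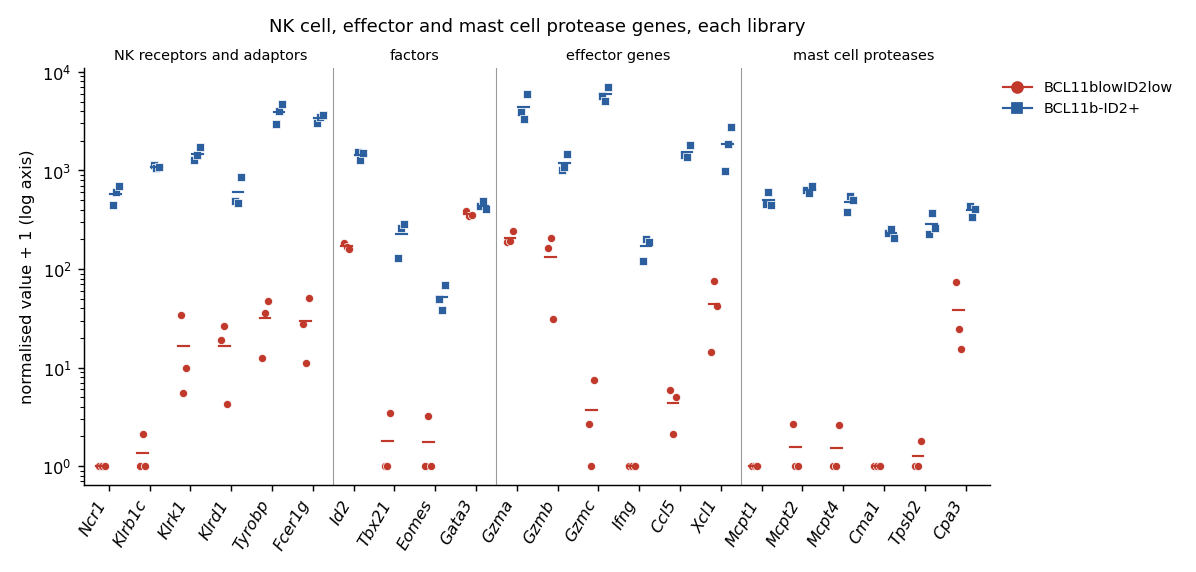
Normalised reads per library (log10 axis of the value plus 1) of NK receptor, factor, effector and mast cell protease genes, with points for the 3 libraries of each gate and a bar at the mean. The BCL11b-ID2+ libraries lie above the BCL11blowID2low libraries for every gene shown, by 2184-fold in the mean for Gzmc and by 1.22-fold for Gata3, which was not called.

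Several cytokine receptor genes were higher in BCL11b-ID2+. Of 22 cytokine receptor genes, 21 were tested, 2 were called higher in BCL11blowID2low (Il1r1 and Csf1r) and 7 lower (Il2rb, Il2rg, Il18rap, Il12rb2, Il1rl1, Tgfbr1 and Tgfbr2), with a median log2 difference of -0.67. The 2 became 1 without BCL11b-ID2+ replicate 4 or BCL11blowID2low replicate 2 or 4, with a pseudocount of 0.5, without the filter, in edgeR and when only the 6 libraries were fitted, and 4 in DESeq2. Il2rb, the chain of the interleukin 2 and 15 receptors on which NK cells depend, stood at 1796, 1660 and 1376 normalised reads in BCL11blowID2low and at 10214, 9933 and 10494 in BCL11b-ID2+ (6.34-fold lower, log2 -2.67, SE 0.37, adjusted p = 2.68e-05). Il18rap stood at 259, 293 and 119 against 1247, 1496 and 1325 (6.07-fold lower, log2 -2.69, SE 0.47, adjusted p = 0.000427). Il12rb2 stood at 9.96, 1.12 and 8.07 against 286, 167 and 269.9 (37.8-fold lower, log2 -5.31, SE 0.80, adjusted p = 7.63e-05). Il18r1, the partner of Il18rap, stood at 813, 1020 and 734 against 1660, 1471 and 1605 and was not called in limma over all libraries (log2 -0.89, adjusted p = 0.2), but was when only the 6 libraries were fitted (0.0133) and in DESeq2 (0.0329). Il15ra, the alpha chain of the interleukin 15 receptor, was not called, at 28.2, 2.24 and 3.23 against 7.78, 1.54 and 21.3 (log2 -0.10, adjusted p = 0.978). Il7r, the receptor chain of most innate lymphoid cells and early thymocytes, stood at 2364, 1648 and 1257 against 1760, 1288 and 1368 (log2 0.22, 95% interval -0.46 to 0.89, adjusted p = 0.785). Among 17 costimulation genes, 14 were tested, 4 were called higher and 2 lower, with a median log2 difference of 0.42. Over all genes tested, 3.22% were called higher and 5.35% lower, and the median was -0.11. The 4 became 2 without BCL11b-ID2+ replicate 1 or 2 or BCL11blowID2low replicate 1 or 2. The 2 called lower became 5 with a pseudocount of 8 and 4 when only the 6 libraries were fitted. Pdcd1, the inhibitory receptor PD-1, which also marks innate lymphoid precursors, stood at 583, 275 and 358 against 5.99, 4.61 and 7.09 (68.7-fold, log2 5.83, SE 0.67, adjusted p = 2.84e-06). Tnfrsf25, the death receptor DR3, stood at 281, 136 and 111 against 8.98, 7.68 and 4.13 (log2 4.42, SE 0.75, adjusted p = 0.000297). Tigit, an inhibitory receptor of NK and T cells, stood at 6.64, 0 and 1.61 against 288, 93.7 and 180.1 (log2 -5.97, SE 1.11, adjusted p = 0.000852).

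A second group among the largest differences toward BCL11b-ID2+ was made up of mast cell proteases. Mcpt1 stood at 0 in all 3 BCL11blowID2low libraries and at 457, 597 and 443 normalised reads in BCL11b-ID2+, at least 455-fold lower (log2 -8.95, SE 0.99, adjusted p = 1.78e-06). Mcpt2 stood at 1.66, 0 and 0 against 633, 584 and 689.7 (log2 -8.84, SE 1.11, adjusted p = 8.87e-06), and Mcpt4 at 0, 0 and 1.61 against 378, 544 and 507 (log2 -8.42, SE 1.06, adjusted p = 9.43e-06). Cma1, the chymase of connective tissue mast cells, stood at 0 in all 3 against 232, 253 and 205 (at least 209.9-fold lower, log2 -7.85, SE 0.88, adjusted p = 2.1e-06). Together with Gzmc and Gzmb these genes lie in 1 protease cluster on chromosome 14, from the start of Cma1 at 55941451 to the end of Gzmb at 56262260, and reads of such similar genes may be split uncertainly. Tpsb2, a tryptase encoded on chromosome 17, outside that cluster, stood at 0, 0 and 0.807 against 225, 366 and 259 (log2 -7.83, SE 1.11, adjusted p = 3.67e-05; DESeq2 adjusted p = 0.0818).

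The list of 16 erythroid, megakaryocyte and mast cell genes holds 3 of these proteases (Mcpt4, Cma1 and Tpsb2), which were left out to look at the others. Of the other 13 genes, 8 were tested, 0 were called higher and 2 lower (Cpa3 and Ms4a2), and their summed level was 73.0 to 132 normalised reads in BCL11blowID2low and 425 to 704 in BCL11b-ID2+. Cpa3, carboxypeptidase A of mast cells, stood at 73.0, 23.5 and 14.5 against 439, 333 and 403 (10.6-fold lower, log2 -3.68, SE 0.47, adjusted p = 1.08e-05), although its mean was 817 ± 108 in DN2 and 809 ± 200.2 in BCL11b+ID2-. Gata2, a factor of mast cells and progenitors, stood at 0 in all 3 BCL11blowID2low libraries against 40.7, 67.6 and 99.8 (at least 63.2-fold lower, log2 -6.05, SE 0.84, adjusted p = 3e-05). Ms4a2, the beta chain of the high-affinity IgE receptor, stood at 0 in all 3 against 5.39, 29.9 and 4.13 (log2 -3.33, SE 0.87, adjusted p = 0.0161), with a call that was lost without BCL11b-ID2+ replicate 2 (adjusted p = 0.126) and under 4 other settings, edgeR among them (adjusted p 0.0555 to 0.0853). Fcer1a, the alpha chain of that receptor, had 0 reads in BCL11blowID2low and 26 in BCL11b-ID2+ and was below the level required for testing. Kit stood at 44.8, 67.1 and 43.6 against 395, 172 and 233 (5.14-fold lower, log2 -2.28, SE 0.28, adjusted p = 7.95e-06). The part of mast cells in the protease difference was not tested.

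Other cell markers moved in both directions. Of 17 macrophage, monocyte and granulocyte genes, 15 were tested, 4 were called higher in BCL11blowID2low and 1 lower, and the summed level was 328 to 605 normalised reads in BCL11blowID2low and 204 to 348 in BCL11b-ID2+, so the sums overlapped. C1qb, a complement chain of tissue macrophages, stood at 56.4, 104 and 111 against 9.58, 0 and 0 (log2 5.32, SE 0.91, adjusted p = 0.000351), and Mrc1, the mannose receptor, at 79.7, 58.1 and 63.8 against 0 in all 3 (at least 105-fold higher, log2 6.08, SE 0.81, adjusted p = 1.78e-05). The others called higher were C1qc and Csf1r, and Csf1r lost its call under 8 alternatives. Ly6c2, the gene called lower, kept its call under every alternative, with log2 differences from -6.93 to -4.13. The remaining 10 tested genes were not called. Of 13 dendritic cell genes, 11 were tested and 6 called lower, a count that was 2 without BCL11b-ID2+ replicate 1 or 2 or BCL11blowID2low replicate 2 and 3 in DESeq2 and without BCL11b-ID2+ replicate 4. Their sum was 367 to 475 in BCL11blowID2low and 1323 to 1816 in BCL11b-ID2+, and Itgax, which encodes CD11c and is also present on NK cells, stood at 1.66, 0 and 0 against 236, 250.3 and 356 (log2 -7.64, SE 0.97, adjusted p = 9.53e-06). B-lineage genes summed to 81.6 to 304 against 293 to 611 and thymic epithelial and stromal genes to 132 to 344 against 236 to 396. Of 10 B-lineage genes, 7 were tested, 1 was called higher (Cd79b, log2 3.03, adjusted p = 0.000642) and 1 lower (Cd74, log2 -4.33, adjusted p = 0.0213). The median log2 difference of the B-lineage list was 0, and over all genes tested 3.22% were called higher and 5.35% lower. Cd79b kept its call under every alternative. Cd74, which is also on the dendritic cell list, lost its call under 4, DESeq2 among them. The part of macrophages, dendritic cells, B cells and stroma in the results was not tested.

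**Figure D4:**
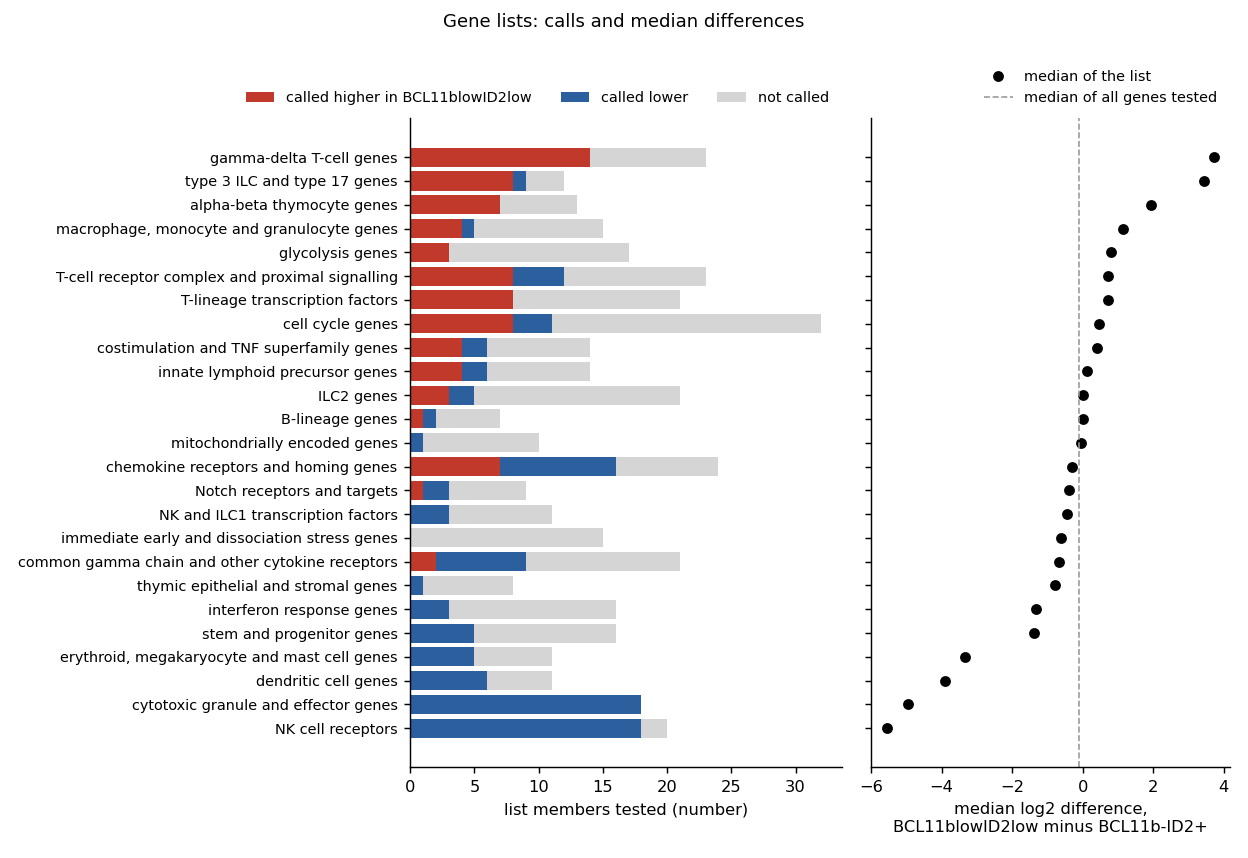
Left, number of tested genes of each list that were called higher or lower in BCL11blowID2low or not called; right, the median log2 difference of each list, with a dashed line at the median of all genes tested (-0.11). Lists are in the order of their medians, from gamma-delta genes at 3.73 at the top to NK receptors at -5.55 at the bottom.

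Genes of progenitors, Notch signalling and cell division showed smaller or mixed differences. Of 18 stem and progenitor genes, 16 were tested, 0 were called higher and 5 lower (Kit, Flt3, Cd34, Meis1 and Gata2; median log2 difference -1.39), 3 of them without BCL11b-ID2+ replicate 2. Cd34 stood at 0, 2.24 and 3.23 normalised reads in BCL11blowID2low and at 55.1, 71.4 and 22.4 in BCL11b-ID2+ (log2 -4.25, SE 0.76, adjusted p = 0.000541), both far below the mean of 1077 ± 149 in BCL11b-ID2-. Of 12 Notch genes, 9 were tested, 1 was called higher and 2 lower (1 when only the 6 libraries were fitted). Dtx1, a Notch target and regulator, stood at 148, 115 and 248 against 2.39, 0 and 2.95 (log2 6.10, SE 1.13, adjusted p = 0.00078), while Hes1, another Notch target, stood at 0, 3.35 and 8.88 against 24.5, 33.0 and 32.5 (log2 -3.13, SE 0.62, adjusted p = 0.00169; 0.103 when only the 6 libraries were fitted). Rbpj, the DNA-binding partner of Notch, stood at 186, 109.6 and 158 against 561, 610.4 and 518 (3.72-fold lower, log2 -1.92, SE 0.32, adjusted p = 0.000291), and Notch1 at 639, 408 and 386 against 451, 779 and 635 (log2 -0.38, 95% interval -0.94 to 0.17, adjusted p = 0.474). The Notch targets Dtx1 and Hes1 thus went opposite ways.

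Of 33 cell cycle genes, 32 were tested, 8 were called higher in BCL11blowID2low and 3 lower, with a median log2 difference of 0.46; the 8 became 5 without BCL11b-ID2+ replicate 1 or 2 and 4 without BCL11blowID2low replicate 2. Top2a, expressed in dividing cells, stood at 2755, 4425 and 3509 normalised reads against 1839, 2027 and 2130 (1.78-fold, log2 0.81, SE 0.17, adjusted p = 0.00289). Cdk6 stood at 1909, 2470 and 1723 against 1146, 969.7 and 851 (2.06-fold, log2 1.03, SE 0.21, adjusted p = 0.00216). On the other side, Ccnd2, cyclin D2, stood at 923, 777 and 688 against 2090, 2472 and 1851 (2.69-fold lower, log2 -1.42, SE 0.23, adjusted p = 0.000145), and the inhibitor gene Cdkn1a, p21, at 0, 2.24 and 11.3 against 113, 64.5 and 62.0 (log2 -4.51, SE 0.75, adjusted p = 0.00026). Of 17 glycolysis genes, all tested, 3 were called higher and 0 lower (1 without BCL11b-ID2+ replicate 1 or with only the 6 libraries, and 6 without BCL11blowID2low replicate 1 or with the replicate block), with Pkm at 832, 763 and 799.8 against 404, 366 and 456 (1.95-fold, log2 0.97, SE 0.19, adjusted p = 0.00175). Of 16 interferon response genes, all tested, 3 were called lower, with a median log2 difference of -1.33, beside 5.35% called lower over all genes tested. The 3 became 1 in edgeR and without BCL11b-ID2+ replicate 1 or 4. They became 5 in DESeq2, with the replicate block and without BCL11blowID2low replicate 4. Of 15 immediate early and dissociation stress genes tested, limma called 0. Hsp90aa1, a heat shock chaperone, was called higher under 7 alternatives: without BCL11b-ID2+ replicate 4 (adjusted p = 0.045) or BCL11blowID2low replicate 1 (0.0205), in DESeq2 (0.0267), with a pseudocount of 8 (0.0467), with a filter of 50 (0.0377), with library weights (0.0225) and with the replicate block (0.00138).

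Lists of other innate lymphoid cells were split. Of 23 type 2 innate lymphoid (ILC2) genes, 21 were tested, 3 were called higher and 2 lower, with a median log2 difference of 0. Over all genes tested, 3.22% were called higher and 5.35% lower. Both counts of the list became 4 in DESeq2. The 3 became 2 when any library other than BCL11blowID2low replicate 4 was left out. The 3 called higher include Bcl11b, a reporter gene of the sort. Il1rl1, the interleukin 33 receptor, stood at 1.66, 1.12 and 2.42 normalised reads in BCL11blowID2low and at 111, 134 and 151 in BCL11b-ID2+ (76.3-fold lower, log2 -5.62, SE 0.70, adjusted p = 7.95e-06), both far below the mean of 3624 ± 389 in BCL11b+ID2+. Ltb4r1, a leukotriene receptor, stood at 46.5, 82.7 and 68.6 against 0 in all 3 (at least 103-fold higher, log2 6.03, SE 0.87, adjusted p = 4.59e-05). Of 14 innate lymphoid precursor genes, all tested, 4 were called higher (Zbtb16, Pdcd1, Cxcr6 and Cxcr5) and 2 lower (Itga4 and the reporter gene Id2). The 4 became 2 without BCL11b-ID2+ replicate 2 or BCL11blowID2low replicate 2, and the 2 became 1 without BCL11blowID2low replicate 4.

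The remaining genes of the ranking by log2 difference belong to none of these lists. All 30 genes of the ranking were called under every alternative tried. They were picked from the same libraries for their call and large difference, so this is no separate support. Toward BCL11blowID2low they include Irf4, a factor of activated lymphocytes, at 845, 321 and 252 normalised reads against 1.8, 0 and 5.9 (184-fold, log2 7.26, SE 0.79, adjusted p = 1.57e-06), and Pou2af1, a B-cell and lymphocyte coactivator, at 203, 312 and 224 against 0, 0 and 1.77 (log2 7.43, SE 0.79, adjusted p = 9.31e-07). P2rx7, an ATP-gated channel, stood at 408, 131 and 174 against 2.99, 0.768 and 1.2 (144-fold, log2 6.41, SE 0.58, adjusted p = 7.28e-08). For Irf4 and P2rx7 replicate 1 was at least 2 times the other libraries of its gate. Toward BCL11b-ID2+ the ranking holds Ifitm1, an interferon-induced membrane protein, at 9.96, 1.12 and 8.07 against 3359, 3776 and 4422 (604-fold lower, log2 -9.33, SE 0.60, adjusted p = 2.8e-10), and Car2, carbonic anhydrase 2, at 0 in all 3 against 531, 394 and 539 (at least 445-fold lower, log2 -8.92, SE 0.81, adjusted p = 8.24e-08). Ccl1, a chemokine and the ligand of CCR8, stood at 1.66, 0 and 0 against 222, 458 and 387 (log2 -7.94, SE 0.84, adjusted p = 9.24e-07). Its receptor gene Ccr8 was lower in BCL11blowID2low too, at 105, 96.2 and 87.2 against 987, 785 and 818 (8.99-fold, log2 -3.15, SE 0.70, adjusted p = 0.00452). Among the others of the ranking, Tlr1, a receptor for bacterial lipopeptides, had means of 182 ± 64.6 (SD, n = 3) in BCL11blowID2low and 2.39 ± 3.17 in BCL11b-ID2+, and Anxa1, an annexin of membranes and inflammation, of 0 and 246 ± 65.7.

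Few genes set BCL11blowID2low apart from every other population of the stage. Against all 5 others, 11 genes were higher in each contrast (0.0795% of the genes tested) and 20 were lower in each (0.145%). The contrasts share the BCL11blowID2low libraries, and the counts depended on them: 7 and 1 genes were higher without BCL11blowID2low replicate 1 and replicate 2, 45 were lower without its replicate 4, and 12 were lower without BCL11b-ID2+ replicate 1. Tcrg-V6 was among the 11, with means of 388 ± 62.5 (SD, n = 3) in BCL11blowID2low, 66.2 ± 39.7 in BCL11b+ID2- and 26.2 ± 16.8 in BCL11b+ID2+, and at most 2.8 in the other populations. Trdv4 was at 578 ± 124, against 97.3 ± 69.8 in BCL11b+ID2- and 91.5 ± 48.1 in BCL11b+ID2+. Zbtb16 was at 673 ± 261, against 157 ± 49.0 and 148 ± 86.1 in the same gates. Cxcr5, a chemokine receptor of lymphoid tissue inducer and follicular cells, stood at 359, 219 and 193 normalised reads in BCL11blowID2low and at 41.3, 11.5 and 40.2 in BCL11b-ID2+ (log2 3.15, SE 0.90, adjusted p = 0.0276). That call of Cxcr5 was lost without BCL11b-ID2+ replicate 2 or 4 or BCL11blowID2low replicate 1 or 2 (adjusted p 0.05 to 0.155), with library weights (0.0626) and with a pseudocount of 0.5 (0.0716). Card10, a scaffold of NF-kappa-B signalling, had means of 61.2 ± 38.9 in BCL11blowID2low and 1.82 ± 1.61 in BCL11b-ID2+.

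Among the genes lower than in all 5 others was Hes1, at 4.08 ± 4.48 normalised reads in BCL11blowID2low and 30.0 ± 4.74 in BCL11b-ID2+. Its mean was 37.4 ± 17.2 in the BCL11b+ID2- libraries, 92.2 ± 13.1 in the BCL11b+ID2+ libraries, 188 ± 60.2 in the BCL11b-ID2- libraries and 210.1 ± 37.1 in DN2. Syk, a kinase downstream of DAP12 and of early receptor signals, was at 14.1 ± 21 in BCL11blowID2low and from 52.3 ± 8.9 in BCL11b+ID2- to 400.3 ± 174 in BCL11b-ID2-. BCL11blowID2low replicate 1 alone held most of the Syk reads of its gate, with 38.2, 0 and 4.04, against 112, 92.9 and 115 in BCL11b-ID2+ (log2 -4.20, SE 0.83, adjusted p = 0.00154; 0.0513 when only the 6 libraries were fitted).

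BCL11b+ID2- also held reads of many gamma-delta genes. The contrast of BCL11blowID2low with that gate, which shares the BCL11blowID2low libraries with the main comparison, called 957 genes, or 6.91%. Trdc did not differ detectably between them (log2 -0.26, adjusted p = 0.633), nor did Tcrg-C1 (log2 0.16, adjusted p = 0.721), Blk (log2 -0.07, adjusted p = 0.98) or Il17a (log2 0.12, adjusted p = 0.968). Il23r did, at a mean of 744 ± 212 normalised reads in BCL11blowID2low and 54.9 ± 37.2 in BCL11b+ID2- (log2 4.09, adjusted p = 0.00553). Ccr6 differed as well, at 99.9 ± 44.6 against 10.8 ± 4.47 (log2 3.05, adjusted p = 0.0216), and Irf4 at 473 ± 324 against 47.9 ± 21.2 (log2 3.18, adjusted p = 0.0165). In the other direction, Tcrg-V4 was at 56.8 ± 22.2 in BCL11blowID2low and at 431 ± 98.1 in BCL11b+ID2- (log2 -2.97, adjusted p = 0.019), and Etv5, a factor of gamma-delta cells, at 69.0 ± 25.8 and 2399 ± 922 (log2 -5.10, adjusted p = 0.00209). The variable segments Tcrg-V6 (log2 2.68, adjusted p = 0.0458) and Tcrg-V4 thus differed in opposite directions between these gates, while the constant segments Trdc and Tcrg-C1 were not separated. The granzymes also divided: Gzma was lower in BCL11blowID2low than in BCL11b+ID2- (207 ± 32.4 against 4968 ± 557, log2 -4.58, adjusted p = 6.64e-09), and Gzmb higher (131 ± 90.5 against 0.665 ± 0.58, log2 5.99, adjusted p = 1.07e-05).

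**Figure D5:**
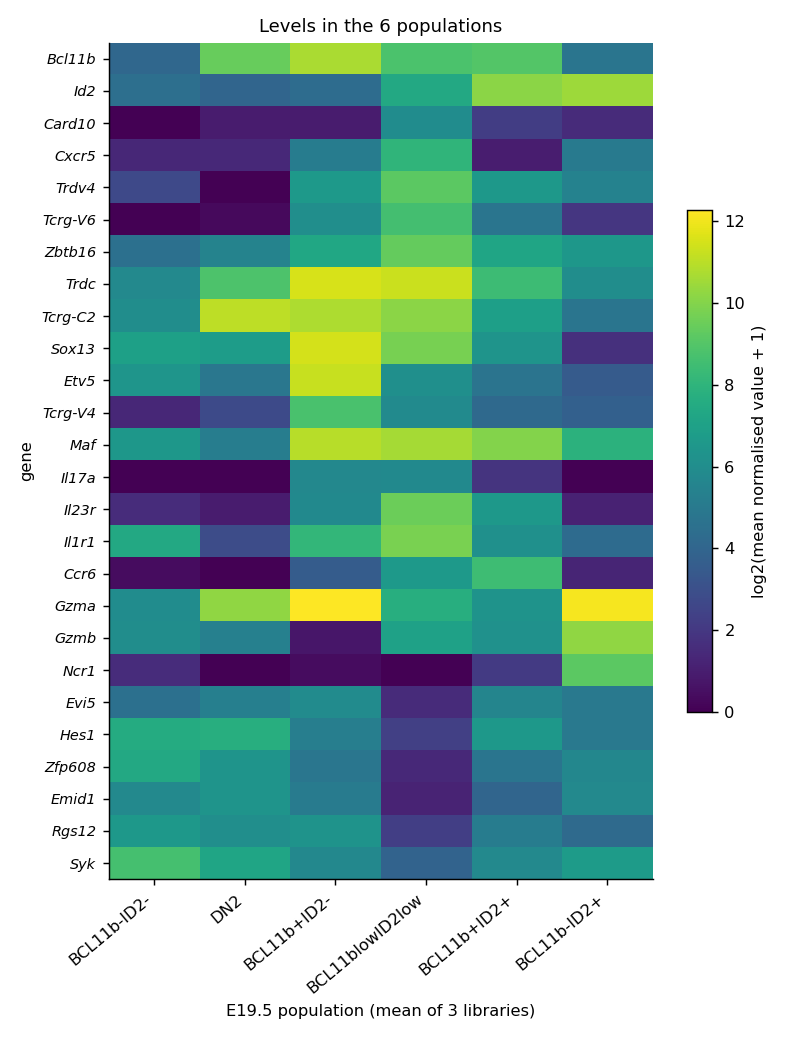
Mean level of named genes (rows) in the 6 populations of the stage (columns), coloured by log2 of the mean normalised reads plus 1, with 3 libraries per population. Trdc and Il17a are at like levels in BCL11blowID2low and BCL11b+ID2-, Tcrg-V6 and Trdv4 are highest in BCL11blowID2low, Etv5 and Tcrg-V4 in BCL11b+ID2-, and Ncr1 in BCL11b-ID2+.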

How the data were processed

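RNA of flow-sorted cells was measured in 18 libraries of 6 populations at E19.5. The labels' protocols name the RNeasy Plus micro kit for RNA, the Ovation RNA-seq System V2 and, for barcodes, the Ovation Ultralow system. Per the submitters' processing notes, Trim Galore 0.50, STAR 2.6.0a, the build GRCm38 and DESeq2 1.18.1 were used. The counter, its annotation and its use of strand are not given in the sources used here. What the authors deposited is, per the labels, a signal of read counts scaled by DESeq; division by the value of 1 read gave whole reads for 100% of them, within a tolerance of 0.01 reads. The table of the earlier stage, normalised separately, was not used.

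Of 26244 genes, those with a value of 10 or more in at least 3 libraries were kept, which removed 12404. limma 3.58.1 (R 4.3.3) was fitted to log2 of the value plus 1 over all 18 libraries, with an intensity trend and robust moderation, two-sided, with Benjamini-Hochberg adjustment over 13840 genes. Differences of genes with few reads come out too small on this scale. edgeR 4.0.16 and DESeq2 1.42.0 on the recovered reads were among 17 alternatives. The fit was tested on simulated reads with the same spread setting for every gene and changes planted only in genes with higher levels. That test does not show how the fit behaves for genes with few reads or uneven replicates. Folds against a gate with no reads use a floor of 3 reads over the gate, and ratios against 1 to 3 reads have a 95% interval; both cover counting error only.

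The comparison and the gene lists were chosen with earlier results of these data known. Genes were named by rule: called, without overlap, and averaging at least 100 in the higher gate, up to 15 per direction by log2 difference; up to 6 called members of each list with a mean of at least 50, with the members that define it; and up to 6 per direction of those apart from the 5 other populations. Outside the rule, and chosen after their values were seen, are Ahr, Cd2, Cd34, Cd44, Cdk6, Etv5, Flt3, Gzma, Gzmb, Hsp90aa1, Id3, Il15ra, Il17f, Il18r1, Il2rg, Itga2, Itga4, Itgae, Klrb1f, Klrd1, Klrk1, Lck, Ms4a2, Rag1, Rag2, Runx3, Sox4, Tcrg-C4, Tcrg-V1, Tgfbr1, Tgfbr2, Tnfsf10, Top2a, Ubash3a and Zfp683, and the mast cell list without proteases. Some genes that met the rule are left out here. Coordinates are those of GENCODE M21 (GRCm38).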

Additional observations from a re-analysis of the deposited data

How the results depend on the processing

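Over 17 alternatives to the analysis that called 1186 genes, edgeR on the recovered reads called 971, DESeq2 1358, other pseudocounts, filters, scalings and weights 999 to 1235, and a fit of only the 6 libraries 906. Leaving out 1 library gave 768 to 1126 called genes, 275 to 395 higher and 493 to 737 lower, with the fewest each time without BCL11b-ID2+ replicate 2 (768, 275 and 493). A set of 371 genes was followed through the alternatives. It holds the ranking, the genes picked as apart from the 5 other populations and every tested list member, and not all are named here. Of its 172 called genes, 0 changed direction under any alternative, 123 were called under all that gave a value and 128 without each library in turn. The 172 were picked by their call in these same libraries, so the kept direction is no separate support. Genes higher than in all 5 other populations numbered 11, and 6 with a pseudocount of 0.5, 23 with a pseudocount of 8, 4 with library weights and 20 in DESeq2; leaving out 1 library gave 1 to 9. Genes lower than in all 5 numbered 20, and 11 with a pseudocount of 8, 12 without the filter and 13 after quantile normalisation; leaving out 1 library gave 12 to 45. The causes were not tested. Quantile normalisation moved the median log2 difference of all genes from -0.11 to 0.05, so the smaller differences (Pkm, Top2a, Trbc2) are to be read relative to that shift. With the replicate number as a block, 1361 genes were called, 526 higher and 835 lower, and 19 and 30 were apart from all 5 populations. Deviations of same-numbered libraries of the 2 gates correlated at 0.076, 0.029 and 0.037, so the numbers were not taken to pair the samples; every library correlated best with its own number, which is a hint from the data and not from the design. Depth limits the genes with few reads in the lower gate, where folds are bounds or have wide intervals.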

Other observations

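Several genes with large differences belong to none of the pathways above. Igfbp4, which binds insulin-like growth factors, stood at 188, 123 and 152 normalised reads in BCL11blowID2low and at 2.99, 0 and 1.77 in BCL11b-ID2+ (97.0-fold, log2 6.10, SE 0.49, adjusted p = 1.36e-08), and its means were 569.9 ± 107 (SD, n = 3) in BCL11b+ID2-, 494 ± 7.24 in BCL11b-ID2-, 237 ± 124 in DN2 and 15.9 ± 8.23 in BCL11b+ID2+. Both gates that carry the full ID2 level were thus the lowest in Igfbp4. Slc15a3, a lysosomal peptide transporter, stood at 129, 138 and 56.5 against 0, 0.768 and 0 (log2 6.39, SE 0.97, adjusted p = 8.8e-05), and Sparc, a matrix protein of many stromal cells, at 196, 106 and 97.7 against 7.18, 0 and 0 (log2 5.99, SE 0.85, adjusted p = 3.8e-05). Gas7, a cytoskeletal adaptor, went the other way, at 0, 0 and 6.46 against 1198, 1063 and 1319 (554-fold lower, log2 -9.25, SE 1.0, adjusted p = 1.35e-06). Of the genes lower than in all 5 other populations, Evi5, a GTPase-activating protein, stood at 0, 0 and 5.65 in BCL11blowID2low against 32.9, 33.0 and 25.4 in BCL11b-ID2+ (log2 -4.05, SE 0.86, adjusted p = 0.00303).

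The mitochondrially encoded genes held 1 called gene of 10 tested, near the share of 8.57% called over all genes tested. mt-Nd6, the subunit gene on the light strand, stood at 578, 555 and 691 normalised reads in BCL11blowID2low and at 1009, 976 and 1097 in BCL11b-ID2+ (1.69-fold lower, log2 -0.76, SE 0.19, adjusted p = 0.00997), while the list's median log2 difference was -0.05.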
